A study of Rattus norvegicus with 9 samples.

Results

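Nkx2-3, Tcf21 and Meox2 are transcription factor genes of the mesoderm, the germ layer that gives rise to blood vessel walls, and their levels were compared between mesenteric and pulmonary arteries of adult rats. They were taken by symbol from the count tables, as 3 of 30452 features, and were chosen because earlier results of these data showed them lower in pulmonary artery. Their difference between the arteries is therefore given below as a description, and no test of it is used as support. RNA sequencing had been done on 9 libraries, 3 per group. The mesenteric control group (replicates 1, 2 and 3) and the pulmonary control group (replicates 1, 2 and 4) came from offspring whose dams drank ordinary water in pregnancy. The mesenteric high-sucrose group (replicates 1, 2 and 3) came from offspring whose dams drank 20% sucrose water. All dams ate a standard diet, and the offspring were 3 to 5 months old. Arteries were dissected under a microscope, and the labels give neither strain, sex nor the number of animals behind a library.

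Nkx2-3 encodes an NK-type homeodomain protein of the visceral mesoderm, the layer around the embryonic gut. It is known for the building of spleen and gut vessels, where it is needed for the addressin Madcam1 that guides lymphocytes. Tcf21, also called epicardin or capsulin, encodes a basic helix-loop-helix protein of the mesenchyme of lung, kidney, spleen and epicardium, and is known for the fibroblast lineage around vessels. Meox2, also called Gax, encodes a homeodomain protein of the somites that in adult vessels is known in smooth muscle and endothelium, where it restrains proliferation. With its paralog Meox1 it shares a role in paraxial mesoderm, and in endothelium of heart and muscle it works with Tcf15 on fatty acid uptake.

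The stretch of 250 bases before the annotated start of each gene is shown because the members are compared here for sequence features that their choice did not use. The sequences are from RefSeq on the GRCr8 assembly, 5′ to 3′ along the gene's strand, and the count tables were made on another build, rn7. Capitals mark matches, on either strand, to these motifs. The NKX2-type motif was searched as TNAAGTG. The E-box, the site type of basic helix-loop-helix proteins, was searched as CANNTG. A homeobox-type motif was searched as TAATTA. The TATA box was searched with the letters TATAAA. The last, known as the CCAAT box, was searched by those letters.

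Nkx2-3, chr1:252427106-252427355, + strand: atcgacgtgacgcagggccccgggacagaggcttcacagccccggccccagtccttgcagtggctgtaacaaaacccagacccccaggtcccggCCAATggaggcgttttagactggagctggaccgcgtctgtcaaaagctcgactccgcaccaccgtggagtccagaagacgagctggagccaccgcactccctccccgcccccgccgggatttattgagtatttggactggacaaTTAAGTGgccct

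Tcf21, chr1:24520249-24520498, + strand: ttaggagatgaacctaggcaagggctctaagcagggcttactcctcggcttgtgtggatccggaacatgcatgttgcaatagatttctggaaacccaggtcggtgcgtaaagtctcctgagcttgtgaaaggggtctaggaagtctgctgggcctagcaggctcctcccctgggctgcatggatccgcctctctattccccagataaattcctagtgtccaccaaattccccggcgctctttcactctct

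Meox2, chr6:59583775-59584024, + strand: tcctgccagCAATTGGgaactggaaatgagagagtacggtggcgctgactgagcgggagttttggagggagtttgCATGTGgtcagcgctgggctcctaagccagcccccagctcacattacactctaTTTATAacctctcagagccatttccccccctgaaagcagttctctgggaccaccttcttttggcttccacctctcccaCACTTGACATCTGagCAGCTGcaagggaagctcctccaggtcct

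The Nkx2-3 stretch held an NKX2-type match from 12 to 6 bases before the start and a CCAAT box from 156 to 152 bases before it. The Tcf21 stretch held none of the motifs. The Meox2 stretch held 5 E-boxes, one of them a CAGCTG from 29 to 24 bases before the start. It also held an NKX2-type match on the other strand from 44 to 38 bases before the start, which overlaps an E-box, and a TATA box on the other strand from 122 to 117. A CCAAT box on the other strand overlaps the farthest E-box. Among 33469 rat promoters of this length, 9.89% held the NKX2-type motif, 65.5% an E-box, 12.0% CAGCTG, 4.86% TAATTA, 12.9% the TATA box and 34.0% the CCAAT box. The 3 genes thus shared no motif of this set. G and C bases made up 62.0% of the Nkx2-3, 53.6% of the Tcf21 and 54.8% of the Meox2 stretch, against a median of 51.2% over all promoters. The Nkx2-3 stretch held 17 CpG pairs, that of Tcf21 7 and that of Meox2 4, against a median of 5.

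Total counts per library ran from 10388231 to 15420546, and levels are given as CPM, counts set to a common library size by factors from all 9 libraries. Every library held the smooth muscle gene Myh11 and the endothelial gene Pecam1. The pulmonary libraries differed in markers of other tissues. Replicate 4 topped all 9 libraries for 10 of 10 lymphocyte and 10 of 10 lung epithelium markers, and was lowest for 9 of 9 smooth muscle, 10 of 13 adventitial fibroblast and 10 of 10 white fat markers. For the cardiac muscle markers, 12 of 12 peaked in replicate 2. In bulk tissue, fewer cells of a type and less RNA per cell cannot be told apart. Markers of the gut wall, another tissue in which Nkx2-3 is known, summed to between 9.71 and 28.2 CPM in the mesenteric libraries and to between 33.3 and 96.5 CPM in the pulmonary ones. Ano1 alone held 22.8 to 90.9 CPM of the pulmonary sums, and without it the sums overlapped, at 4.86 to 15.2 CPM in mesenteric and 5.55 to 10.5 CPM in pulmonary libraries. Most of these genes mark gut epithelium, so the sums say little of gut muscle or stroma. Actg2, a smooth muscle marker, was at 1320 to 3129 CPM in mesenteric and 287 to 846 CPM in pulmonary libraries. Myl9 of the same list also did not overlap, and the other smooth muscle markers did.

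Nkx2-3 was present in every mesenteric library and all but missing from the pulmonary ones. It was at 49.5, 35.4 and 59.4 CPM in mesenteric control replicates 1, 2 and 3. The high-sucrose replicates 1, 2 and 3 had 50.7, 30.4 and 56.7 CPM. Pulmonary replicates 1, 2 and 4 had 0, 0.14 and 0.065 CPM. Those values stand for 0, 2 and 1 counts, against 735, 411 and 636 counts in the mesenteric controls and 658, 320 and 594 counts in the high-sucrose libraries. The 6 mesenteric libraries therefore lay far from the 3 pulmonary ones, and the 2 mesenteric groups overlapped. Mean levels were 48.1 ± 12.1 CPM in mesenteric control, 45.9 ± 13.8 CPM in mesenteric high-sucrose and 0.069 ± 0.072 CPM in pulmonary artery (SD, n = 3 each). With only 3 counts over the pulmonary group, the ratio of counts per scaled total was 663 for mesenteric control, with a 95% counting interval of 227 to 3220. For the high-sucrose group it was 641, with an interval of 219 to 3109. These intervals cover counting error only. The lowest mesenteric control library was 247 times the highest pulmonary library, and the lowest high-sucrose library 212 times.

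Tcf21 was lower in all 3 pulmonary libraries than in any of the 6 mesenteric ones, but it was detected in all 9. It was at 34.5, 173 and 60.4 CPM in mesenteric control replicates 1, 2 and 3. The high-sucrose replicates 1, 2 and 3 held 67.3, 49.4 and 57.1 CPM, and the pulmonary replicates 1, 2 and 4 held 11.3, 15.7 and 9.23 CPM. The high-sucrose libraries lay close together, while mesenteric control replicate 2 stood 5.01 times above replicate 1 of its group. Pulmonary counts were 136, 219 and 143, so these lower levels were well above the counting limit. Means were 89.4 ± 73.7 CPM in mesenteric control, 57.9 ± 9.02 CPM in high-sucrose and 12.1 ± 3.30 CPM in pulmonary artery (SD, n = 3 each). The mesenteric control mean was 7.41 times the pulmonary mean, and 3.94 times without mesenteric control replicate 2. The high-sucrose mean was 4.80 times the pulmonary mean. The fitted log2 fold change, pulmonary minus mesenteric, was −2.91 ± 0.64 (SE) against the controls and −2.27 ± 0.28 against the high-sucrose group, with the pulmonary libraries shared by both.

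Meox2 had the smallest difference between the arteries. It was at 33.5, 34.3 and 43.0 CPM in mesenteric control replicates 1, 2 and 3, a narrow range. The high-sucrose replicates 1, 2 and 3 spread widely, at 56.5, 12.4 and 42.5 CPM. Pulmonary replicates 1, 2 and 4 had 17.6, 17.5 and 8.78 CPM. All pulmonary libraries were thus below all mesenteric controls, but high-sucrose replicate 2 lay inside the pulmonary range. Means were 36.9 ± 5.24 CPM in mesenteric control, 37.1 ± 22.5 CPM in high-sucrose and 14.6 ± 5.05 CPM in pulmonary artery (SD, n = 3 each). The ratio of means was 2.53 for the controls and 2.54 for the high-sucrose group, and 3.39 for the latter without its replicate 2. The fitted log2 fold changes, pulmonary minus mesenteric, were −1.34 ± 0.33 and −1.35 ± 0.57 (SE). The latter was −0.92 without high-sucrose replicate 1.

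The directions were the same with each pulmonary library left out in turn. For Nkx2-3, which rests on 3 pulmonary counts, the ratio was 1321 for mesenteric control and 1276 for high-sucrose without pulmonary replicate 2. Without pulmonary replicate 4 that of Nkx2-3 to control was 624. In the same setting the ratio of mesenteric control to pulmonary means was 6.63 for Tcf21 and 2.11 for Meox2. Without pulmonary replicate 2 these 2 ratios were 8.72 and 2.81. Pulmonary replicate 1, the lowest of the 3 for heart and lung epithelium markers, held no count of Nkx2-3 and was below every mesenteric control library for Tcf21 and Meox2.

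**Figure D1:**
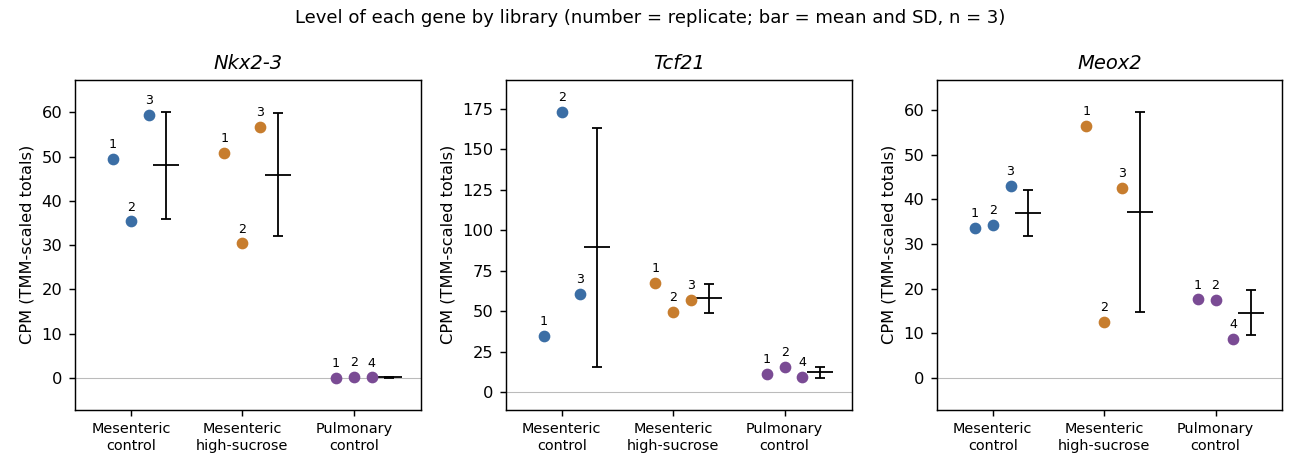
CPM of Nkx2-3, Tcf21 and Meox2 (a vertical axis of its own for each gene, linear) in the 9 libraries; points are libraries with their replicate number, and the bar beside them is the mean and SD of 3 libraries. Nkx2-3 lies between 30.4 and 59.4 CPM in the mesenteric and at or below 0.14 CPM in the pulmonary libraries, mesenteric control replicate 2 stands apart for Tcf21, and high-sucrose replicate 2 falls to the pulmonary range for Meox2.

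The order of the group means was mesenteric control, mesenteric high-sucrose and pulmonary for Nkx2-3 and Tcf21, and high-sucrose, control and pulmonary for Meox2. The first and the middle place overlapped for each gene. Across all genes tested, libraries of pulmonary artery lay wholly below those of mesenteric control for 1086 of 14315 genes (7.59%) and wholly above for 917 (6.41%). Against the high-sucrose group these were 1248 of 14222 (8.78%) and 930 (6.54%). All 3 members lay wholly below the mesenteric controls, and Nkx2-3 and Tcf21 wholly below the high-sucrose group. In edgeR's quasi-likelihood test 2 genes (0.0140%) passed an adjusted p of 0.05 between pulmonary and mesenteric control, Nkx2-3 being one of them. Between pulmonary and high-sucrose artery 23 passed (0.162%), Nkx2-3 and Tcf21 among them. The members were picked on these contrasts, so nothing is read from those counts. Nkx2-3 was all but missing from the pulmonary libraries, while Tcf21 and Meox2 were measured in every one of them. Whether the name abdominal holds was not tested, since only mesenteric and pulmonary arteries were compared.

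The effect of sucrose water in pregnancy was asked of the mesenteric arteries, a contrast for which the members were not picked. None of the 3 genes passed. Nkx2-3 had a log2 fold change, high-sucrose minus control, of −0.05 ± 0.28 (SE, adjusted p = 1 by edgeR's quasi-likelihood test over all genes). Leaving out control replicate 3 gave 0.12, and leaving out high-sucrose replicate 2 gave 0.18. Tcf21 had −0.63 ± 0.56 (adjusted p = 1 by edgeR), and its sign turned, to 0.31, without mesenteric control replicate 2. Meox2 had 0.01 ± 0.48 (adjusted p = 1 by edgeR), and ran from −0.40 without high-sucrose replicate 1 to 0.44 without high-sucrose replicate 2. The groups overlapped for each gene. Over the alternatives tried, the adjusted p ran from 0.955 to 1 for Nkx2-3, from 0.922 to 1 for Tcf21 and from 0.998 to 1 for Meox2. Of 13995 genes tested in this contrast 0 passed in edgeR (0%), 279 had an unadjusted p under 0.05 (1.99%) and DESeq2 called 3 (0.0214% of those it gave an adjusted p). High-sucrose libraries lay wholly above control for 372 genes (2.66%) and wholly below for 466 (3.33%).

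Cell types of the artery wall moved with some of these values, and their part in them was not tested. In mesenteric control replicate 2, where Tcf21 was highest, 7 of 13 adventitial fibroblast markers were the highest of the 9 libraries. The fibroblast sum was 20122 CPM there, against 9038 to 13644 CPM in the other mesenteric libraries, and the smooth muscle sum was the lowest of the mesenteric libraries at 13665 CPM. In high-sucrose replicate 2, where Meox2 was lowest among mesenteric libraries, the fibroblast sum was the lowest of those 6 at 9038 CPM and white fat markers were the highest at 2309 CPM. The fibroblast sum ran from 2930 to 12406 CPM in the pulmonary libraries, and the blood endothelium sum from 665 to 2029 CPM, against 1355 to 3696 CPM in the mesenteric ones. The lymphatic endothelium sum was 50.8 to 122 CPM in the pulmonary and 132 to 832 CPM in the mesenteric libraries, without overlap, and was highest in mesenteric control replicate 2. Of its markers, Mmrn1 and Reln did not overlap between the arteries. Prox1, Lyve1, Flt4 and Pdpn did, and Prox1 was highest in pulmonary replicate 2. No smooth muscle, fibroblast or endothelial marker list was at 0 in any library.

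Set against markers of the same library, the 3 genes gave different patterns. Per 1000 CPM of Myh11, the smooth muscle myosin, Nkx2-3 was at 3.47 to 12.3 CPM in the mesenteric libraries and at 0 to 0.064 CPM in the pulmonary ones. It did not overlap against any of 5 markers tried (Pdgfra, Dcn, Lum, Myh11 and Pecam1). Per 100 CPM of Pdgfra, a receptor of fibroblasts, Tcf21 was at 31.1 to 89.7 CPM in the mesenteric libraries and at or below 16.0 CPM in the pulmonary ones, again without overlap. Per 1000 CPM of Dcn, the matrix protein decorin, it was at 9.31 to 20.8 CPM in mesenteric libraries, and pulmonary replicate 4 was above them at 24.5 CPM, while replicates 1 and 2 were at 2.62 and 4.85 CPM. Meox2 per 100 CPM of Pecam1 was at 1.83 to 8.43 CPM in mesenteric libraries and at 3.83 to 4.36 CPM in the pulmonary ones, so that the arteries overlapped. Per 100 CPM of Pdgfra it was at 16.0 to 48.7 CPM against 12.7 to 15.6 CPM, with no overlap but little distance. Against Dcn, Lum and Myh11 the arteries overlapped for both Tcf21 and Meox2. Against Pecam1 Tcf21 did not overlap, at 5.68 to 21.9 CPM per 100 CPM in mesenteric and 2.80 to 4.54 CPM in pulmonary libraries.

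**Figure D2:**
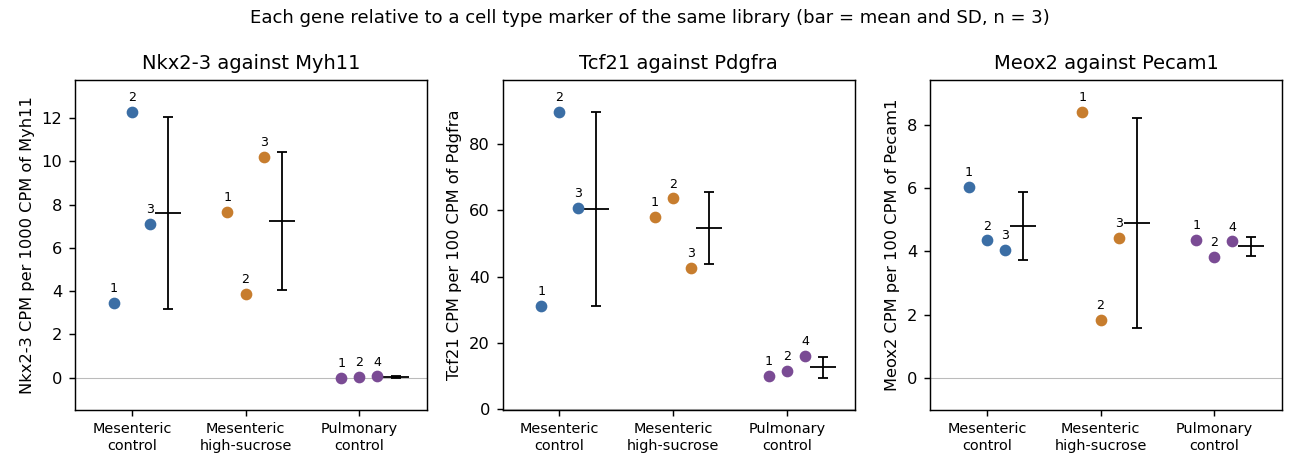
Nkx2-3 per 1000 CPM of Myh11, Tcf21 per 100 CPM of Pdgfra and Meox2 per 100 CPM of Pecam1 (linear axes) in each library, with the mean and SD of 3 libraries. The pulmonary points lie below all mesenteric ones for Nkx2-3 and Tcf21, and within the mesenteric range of 1.83 to 8.43 for Meox2.

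Among other NK homeobox genes, 13 of 14 listed were found, and Nkx6-1 was the one tested, with a log2 fold change of 1.14 ± 1.11 (SE) for pulmonary minus mesenteric control. Nkx2-5, the homeobox factor of heart muscle, had 0 counts in the 6 mesenteric libraries and in pulmonary replicate 1. It was at 10.4 CPM in pulmonary replicate 2, the library highest for cardiac markers, and at 0.84 CPM in replicate 4. Nkx2-1, the factor of lung epithelium, also had 0 counts in those 7 libraries, and was at 0.86 CPM in pulmonary replicate 2 and 14.7 CPM in replicate 4, the library highest for lung epithelium markers. Both were thus detected in pulmonary replicates 2 and 4 only, and pulmonary replicate 1 held no count of Nkx2-1, Nkx2-3 or Nkx2-5.

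**Figure D3:**
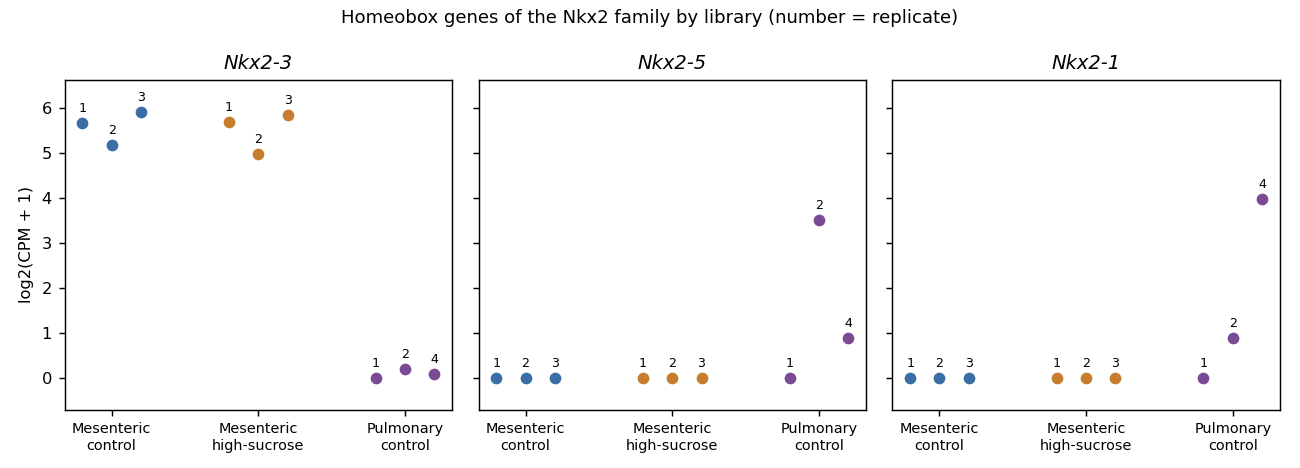
log2(CPM + 1) of Nkx2-3, Nkx2-5 and Nkx2-1 in the 9 libraries, with replicate numbers. Nkx2-3 is seen in the 6 mesenteric libraries, Nkx2-5 and Nkx2-1 in pulmonary replicates 2 and 4 only.

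None of the relatives and partners of Tcf21 passed in edgeR between pulmonary and mesenteric control. Across all genes of that contrast, 1221 had an unadjusted p under 0.05 (8.53%). DESeq2 called 173 higher (1.24% of those it gave an adjusted p) and 235 lower (1.69%), shares against which the counts of the lists below are to be read. Of 11 Twist-type basic helix-loop-helix genes, 6 were tested between pulmonary and mesenteric control, 4 higher and 2 lower in sign with a median log2 fold change of 0.29, against 0.06 over all genes. Of these, 1 had an unadjusted p under 0.05 and DESeq2 called 0. Hand2, a factor of heart and limb mesenchyme, was at 11.3 ± 10.7 CPM in pulmonary and 27.0 ± 12.7 CPM in mesenteric control artery (SD, n = 3 each). Pulmonary replicate 4 was at 1.48 CPM and replicate 2 at 22.6 CPM, so the groups overlapped. Twist2 was at 6.77 ± 3.48 and 7.46 ± 1.51 CPM. Msc, or musculin, was at 3.95 ± 3.75 and 3.71 ± 4.01 CPM. Of the E proteins, partners of such factors, and the Id proteins that hold them off, 7 of 7 were tested and 0 passed in edgeR, with 1 at an unadjusted p under 0.05, where 8.53% of all genes were, and 0 called by DESeq2. Id2, chosen after its values were seen, was lower without overlap at 79.9 ± 16.8 against 181 ± 89.5 CPM. Id1, Id3 and Id4 overlapped, with log2 fold changes of −0.58, −0.56 and 0.18.

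Meox1, the paralog of Meox2, overlapped between the arteries, at 4.03 ± 4.10 CPM in pulmonary and 6.33 ± 7.04 CPM in mesenteric control. Its highest values were 14.4 CPM in mesenteric control replicate 2 and 8.71 CPM in pulmonary replicate 4. Of 17 paraxial mesoderm factors listed with it, 10 were tested. None passed in edgeR, 3 had an unadjusted p under 0.05 (8.53% over all genes), and DESeq2 called 3, all higher in pulmonary artery (1.24% over all genes). The median was 1.80, against 0.06 over all genes. Pax9, Six2 and Six4, chosen after their values were seen, were higher without overlap. Six2 ran from 4.01 to 9.94 CPM in the pulmonary libraries and was at or below 0.46 CPM in the mesenteric libraries. The forkhead genes Foxc2 and Foxc1 overlapped, at −0.72 and −0.88. Pax9 and Six2 passed the filter on low counts through their pulmonary libraries, so this median is no support for a direction.

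The visceral mesoderm list was split in direction. Of its 31 genes, 24 were tested between pulmonary and mesenteric control, with 10 higher and 14 lower in sign and a median of −0.20, against 0.06 over all genes. None passed in edgeR and 6 had an unadjusted p under 0.05 (8.53% over all genes). DESeq2 called 3 higher and 1 lower (1.24% and 1.69% over all genes). Nr2f2, or COUP-TFII, a factor of venous and lymphatic endothelium, was at 42.4 ± 12.9 CPM in pulmonary and 159 ± 38.9 CPM in mesenteric control, without overlap (log2 fold change −1.91 ± 0.32 SE). Prrx1 overlapped, with a log2 fold change of −0.45. Chosen after their values were seen, Isl1 and Hlx were also lower without overlap, at −2.56 and −1.25. Gata4, Gata5, Tbx5 and Nr2f1 were higher without overlap, the first 3 being factors of the heart. Nr2f1 was close, at 2.98 to 4.87 CPM against 1.49 to 2.83 CPM. Gata4 stood at 4.89, 41.0 and 2.32 CPM for pulmonary replicates 1, 2 and 4 and at most 0.095 CPM in the mesenteric libraries, highest in the library richest in cardiac markers. Gata4, Gata5 and Tbx5 passed the filter on low counts through their pulmonary libraries.

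Genes linked to Nkx2-3 in spleen and gut stroma were measured to see whether its near absence was shared. Of 17 listed, 15 were tested between pulmonary and mesenteric control, with 11 lower and 4 higher in sign and a median of −0.59, against 0.06 over all genes. None passed in edgeR and 4 had an unadjusted p under 0.05 (8.53% over all genes). DESeq2 called 1, lower (1.69% over all genes). Madcam1, the addressin known to depend on Nkx2-3 and named for that, was at 4.91, 4.91 and 0.56 CPM in mesenteric control replicates 1, 2 and 3 and ran from 3.47 to 15.9 CPM across the high-sucrose libraries. Pulmonary replicates 1, 2 and 4 had 0.25, 0.14 and 1.29 CPM. The pulmonary libraries were thus below all 3 high-sucrose ones, and overlapped the controls because control replicate 3 was at 0.56 CPM. Ccl21, a chemokine of lymphatic endothelium, was lower than in mesenteric control without overlap, at 53.5 ± 57.8 against 220 ± 87.2 CPM. Its highest pulmonary value was 120 CPM in replicate 4, the library rich in lymphocyte markers, close to the lowest control value of 128 CPM. Against the high-sucrose group it overlapped, since high-sucrose replicate 3 was at 105 CPM. The lymphatic endothelium sum was lower without overlap in the same libraries, though of its markers only Mmrn1 and Reln did not overlap. The part of this cell type in the Ccl21 difference was not tested. Vcam1 overlapped, at −0.33. Cxcl13, a chemokine of lymphoid stroma chosen after its values were seen, was higher without overlap, with 6.46 and 17.8 CPM in pulmonary replicates 1 and 2 and 499 CPM in replicate 4. Ltbr and Edn1, also named after their values were seen, were lower without overlap. Of the 15 tested genes, 3 thus lay wholly below mesenteric control and 1 wholly above, against 7.59% and 6.41% over all genes.

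Genes linked to Meox2 gave no call between pulmonary and mesenteric control. Of 15 listed, 12 were tested between pulmonary and mesenteric control, 6 higher and 6 lower in sign with a median of 0.08, against 0.06 over all genes. In edgeR 0 passed, 0 had an unadjusted p under 0.05, and DESeq2 called 0. The fatty acid genes Fabp4 and Lpl had log2 fold changes of −0.40 and 0.22, and the growth factor Vegfa of 0.43, each with overlap. Of 18 genes linked to Tcf21 in mesenchyme, 17 were tested, with a median of −0.29. In edgeR 0 passed, 1 had an unadjusted p under 0.05 (8.53% over all genes) and DESeq2 called 1, higher (1.24%). Gata4, also counted on the visceral mesoderm list, was the only gene of this list higher without overlap. It passed the filter on low counts through its pulmonary libraries, so the 2 lists are not separate for it. The collagen Col3a1 was at −0.40 ± 0.50 (SE) and the matrix protein Dcn at −1.02 ± 0.91, and both overlapped, Dcn being at 2636 ± 2028 CPM in pulmonary and 5275 ± 3437 CPM in mesenteric control (SD, n = 3 each). Tgfbr2, a TGF-beta receptor chosen after its values were seen, was lower without overlap, at −0.56. Against the high-sucrose arteries none of the genes on the lists of relatives, partners, companions and linked genes passed in edgeR. DESeq2 called Twist1 higher in pulmonary artery, 3 paraxial and 3 visceral mesoderm factors higher and 1 visceral one lower. It also called 2 genes linked to Nkx2-3 lower, and of those linked to Tcf21 1 higher and 1 lower. Over all genes of this contrast DESeq2 called 211 higher (1.53%) and 334 lower (2.42%). Twist1, named after its values were seen, was at 6.95 ± 4.25 CPM in pulmonary and 1.21 ± 0.47 CPM in high-sucrose artery, without overlap (SD, n = 3 each).

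In the sucrose contrast none of these 8 lists had a call in edgeR or DESeq2, and 0 of their genes had an unadjusted p under 0.05. Chosen after their values were seen, Tbx18 and the fatty acid transporter Slc27a1 lay wholly above control in the high-sucrose libraries, at log2 fold changes of 1.00 and 0.37.

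The next genes in GRCr8 order on either side of each member, up to 2 a side, were compared to see whether the difference was shared with the surroundings. Around Nkx2-3, Got1, Slc25a28 and Entpd7 overlapped between pulmonary and mesenteric control, with log2 fold changes of 1.64, −0.23 and 0.37, and Cnnm1 was too low to be tested. Cnnm1 was at 1.35, 0.52 and 1.49 CPM in mesenteric control replicates 1, 2 and 3 and at 0, 0.14 and 0.13 CPM for pulmonary replicates 1, 2 and 4. Like Nkx2-3, it lay below all 6 mesenteric libraries in each pulmonary one. Around Tcf21, Eya4, Rps12, Slc2a12 and Sgk1 overlapped, at 0.59, −0.12, 0.49 and −1.06. Around Meox2, Agmo, 68.8 kb away, overlapped. Sostdc1, an antagonist of BMP and Wnt signals 801.2 kb away, and Dgkb, a diacylglycerol kinase 723.4 kb away, were lower without overlap. Dgkb, singled out after its values were seen, was at 73.0, 45.4 and 75.5 CPM in mesenteric control replicates 1, 2 and 3 and between 1.81 and 6.16 CPM across the pulmonary libraries. Its log2 fold change was −4.08 ± 0.50 (SE, adjusted p = 0.0926 by edgeR's quasi-likelihood test and 5.49e-12 by DESeq2), beside −1.34 for Meox2. Neither of these genes passed in edgeR.

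**Figure D4:**
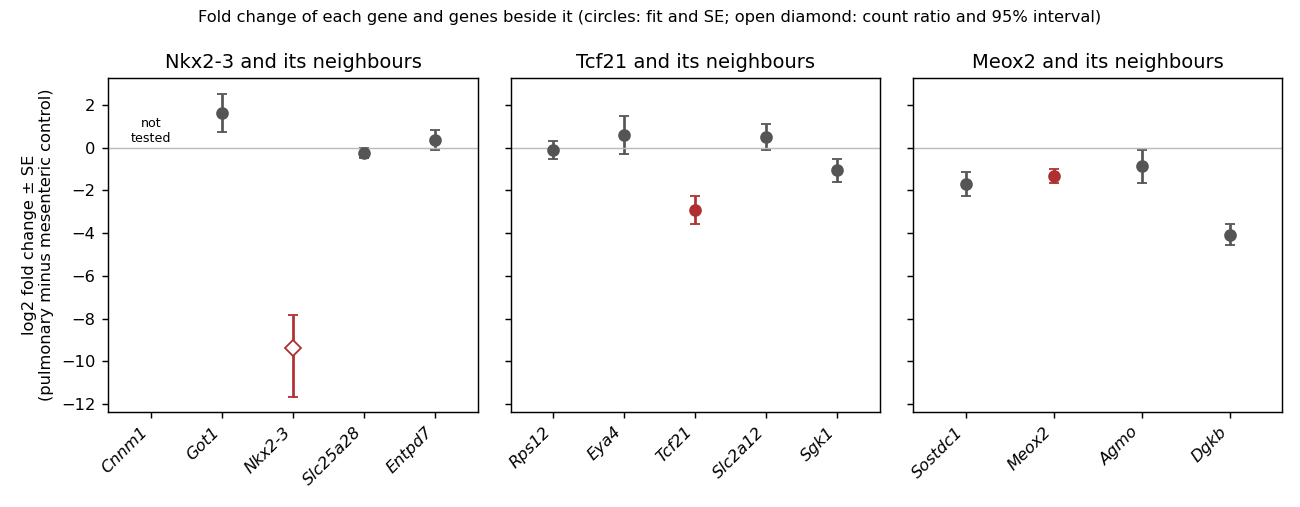
log2 fold change, pulmonary minus mesenteric control, of Nkx2-3, Tcf21 and Meox2 (red) and of up to 2 genes on each side in GRCr8 order (grey); circles and bars are the fitted value and its SE, and the open diamond for Nkx2-3 is the ratio of counts with its 95% counting interval. Dgkb, 723.4 kb from Meox2, has the lowest fitted value shown among neighbours, −4.08.

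The genes whose levels followed each member most closely across the 9 libraries were ranked by Pearson's r of log2(CPM + 1) among 12972 candidates. These r values are descriptions over libraries that share 2 tissues, so a gene that differs between the arteries scores high. For Nkx2-3 they included Csgalnact1 (0.98), the Hox genes Hoxd9 and Hoxb7 (0.98 each) and Lxn (0.98). Within the 6 mesenteric libraries alone these were 0.85, 0.78, 0.38 and 0.64. With a pseudocount of 0.1 in place of 1, 2 of the 5 highest were still among the 5 highest. For Tcf21 they were Tnfaip6 (0.97), Calcrl, the receptor subunit for calcitonin gene-related peptide and adrenomedullin (0.97), Hoxa5, AABR07063279.1 and Cnrip1 (0.96 each), with 0.83 to 0.90 within the mesenteric libraries. Tnfaip6 shared the high value of mesenteric control replicate 2, at 267 CPM, with 18.2 and 66.8 CPM for its replicates 1 and 3. For Meox2 they were Tril and Arl4d (0.97 each), Pofut1 (0.96), and Smu1 and Fgf18 (0.94 each), with 0.90 to 0.97 within the mesenteric libraries. Arl4d shared the low value of high-sucrose replicate 2, at 15.5 CPM, with 48.8 and 32.9 CPM for its replicates 1 and 3.

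Among themselves the members had an r of 0.86 for Nkx2-3 with Tcf21, 0.75 for Nkx2-3 with Meox2 and 0.70 for Tcf21 with Meox2 over the 9 libraries. Over the 6 mesenteric libraries these were −0.32, 0.80 and 0.19. Being lower in pulmonary artery is what the 3 genes were chosen for, and within mesenteric artery Nkx2-3 and Meox2 were the pair with the highest r. Both had their lowest mesenteric level in high-sucrose replicate 2, at 30.4 and 12.4 CPM, and r without that library was not computed.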

How the data were processed

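RNA sequencing of poly(A) RNA covered 9 libraries. For each, the authors deposited raw gene counts, not normalized. The build was rn7, per the submitters' processing notes. Aligner, counting program, annotation and counted strand: not given in the sources used here, so reads shared with paralogs or antisense genes cannot be told apart. Each table held 30452 features.

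CPM levels use TMM factors computed over the 9 libraries together. Comparisons used edgeR 4.0.16 (quasi-likelihood F test, R 4.3.3), with filterByExpr, robust dispersion, only the 6 libraries compared and Benjamini-Hochberg adjustment over all genes tested and a threshold of 0.05. DESeq2 1.42.0 was an alternative, and the test was tried on simulated data. The labels do not say that libraries came from separate animals, so p-values reflect only how these samples spread, possibly for technical reasons. Counts of libraries within a group differed by more than sampling noise (chi-square over degrees of freedom 45.7 to 332).

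The members and all gene lists were chosen with earlier results of these data known. The rule for named genes takes the members, the 3 genes of highest mean level in each list, genes that passed, and the 5 genes most alike to each member with a mean of at least 1 CPM. Neighbours were taken by position, and genes outside the rule, such as Madcam1 and those without overlap, were added after their values were seen. Intervals on counts are exact at 95% confidence. Of 222 distinct listed genes 214 were found by symbol. The newer quasi-likelihood method of edgeR and pulmonary replicate 1 alone were alternatives added after seeing the data. Results of some genes that these rules name are left out.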

Additional observations from a re-analysis of the deposited data

How the results depend on the processing

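When pulmonary replicate 1 stood alone for its artery, a setting chosen after seeing the data, the count ratio of Nkx2-3 was at least 193 for mesenteric control and at least 186 for high-sucrose, against a floor of 3 counts. The fitted fold changes of the members between the arteries kept their direction under every alternative. With the replicate block Meox2 against high-sucrose was at −0.62, where it was −1.35 without it. In the sucrose contrast, with 1 library left out, Nkx2-3 ran from −0.25 to 0.18, Tcf21 from −1.02 to 0.31 and Meox2 from −0.40 to 0.44 on the log2 scale, and with the replicate block Meox2 was at −0.21. Counts of called genes depended on the setting. In the sucrose contrast DESeq2 called 3. Between pulmonary and mesenteric control, against 2, calls were 408 with DESeq2, 38 with all 9 libraries in 1 fit, 36 with the replicate block, 9 with edgeR's newer method (chosen after seeing the data), 0 to 22 with 1 library left out (22 without pulmonary replicate 4) and 0 with pulmonary replicate 1 alone. Between pulmonary and high-sucrose artery, against 23, they were 2 with median ratio factors, 545 with DESeq2, 2 without a filter, 12 with a stricter filter, 427 with the replicate block, 40 with the newer method, 0 to 200 with 1 library left out (200 without pulmonary replicate 4) and 42 with pulmonary replicate 1 alone. Whether equal replicate numbers mark paired samples cannot be settled from groups of 3. Deviations of same-numbered libraries correlated at 0.20, −0.31 and 0.12 in the sucrose contrast. Between pulmonary and mesenteric control they correlated at 0.19 for replicate 1 and −0.17 for replicate 2. The block left 1 residual degree of freedom in the pulmonary contrasts. On totals without mitochondrial genes, Tcf21 averaged 69.5 CPM in high-sucrose and Meox2 43.5 CPM in mesenteric control. Depth limits the pulmonary level of Nkx2-3, which rests on 3 counts.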
